A study of Mus musculus with 12 samples.

Results

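Colony-stimulating factors are the secreted proteins that drive bone marrow progenitors to become macrophages and granulocytes, and 6 genes of that system were followed here on expression arrays of mouse bone marrow-derived macrophages (BMDMs). They are 2 ligand genes, Csf1 (M-CSF) and Csf2 (GM-CSF), and 4 receptor genes, Csf1r (the M-CSF receptor), Csf2ra and Csf2rb (the alpha chain and the common beta chain of the GM-CSF receptor) and Csf3r (the G-CSF receptor). The genes were chosen by name, as every probe set that the array annotation gives to 1 of these symbols alone, which makes 13 of 34945 single-symbol probe sets and 6 of 18193 genes, and that rule uses no measured value. All 6 genes were measured and all 6 entered every test, since no filter on low values was set.

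The study asked what selenoproteins do in macrophages, by deleting Trsp, the gene of the selenocysteine tRNA that every selenoprotein needs. Female mice of the strain c57bl6 gave 4 groups of 3 arrays. Control BMDMs had the genotype Trspfl/fl-LysM-Cre-/- and knockout BMDMs the genotype Trspfl/fl-LysM-Cre+/-, so cells of both genotypes carried floxed Trsp and the Cre transgene was the difference between them. Cells of both genotypes were harvested untreated or after 4 h with lipopolysaccharide (LPS), the bacterial ligand of Toll-like receptor 4. The LysM promoter drives Cre in myeloid cells, so a bone marrow cell of another lineage would be expected to keep Trsp. All 4 groups were grown for 7 days with added M-CSF, the product of Csf1 and the ligand of the receptor that Csf1r encodes. The labels call the replicates biological but do not say whether each came from a separate mouse, so the p-values speak for the scatter of these 12 cultures alone, and that scatter may be technical. Trsp itself was not analysed here, so the genotype labels were not checked by the deleted gene.

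M-CSF binds a receptor tyrosine kinase that macrophages need for survival, and most tissues supply it without inflammation. GM-CSF and G-CSF are made on demand, and their receptors signal through Janus kinases and STAT proteins. The GM-CSF receptor joins its own alpha chain to a beta chain that the interleukin-3 and interleukin-5 receptors also use. The G-CSF receptor is best known from neutrophils and their precursors, and the monocyte lineage carries it too.

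The summed signal of 10 macrophage markers, among them Adgre1, Cd68 and Lyz2, was 57450 to 73988 per array, and none of the 10 passed the test for LPS in either genotype. Not all were unchanged: their LPS differences on the log2 scale ran from -0.57 to 3.78 in control and from -0.40 to 3.80 in knockout cells. The medians were -0.05 and 0.04. Lymphoid markers were near the bottom of the scale, with a summed signal of 9 genes of 137 to 250 per array. Of 12 genes known to respond to LPS, 11 rose in control cells and 11 in knockout cells, among them Il6, Il12b and Ptgs2. The second LPS-treated knockout array was dim before scaling, with a mean deposited signal of 199.7 against 492 to 860.9 on the other 11 arrays. Values below are log2 of the quantile-scaled signal after adding 16, and tests are limma across all 18193 genes with Benjamini-Hochberg adjustment and a threshold of 0.05. In bulk RNA, fewer cells of a type and less RNA per cell cannot be told apart.

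Upstream windows of the ligand genes are shown because their signals moved most. The windows are the 250 bases before the start of the RefSeq gene model on GRCm38.p6, read on the minus strand, which is the strand of both genes, and capitals mark motif matches. The Csf1 window is chr3:107760470-107760719 and the Csf2 window is chr11:54249900-54250149.
Csf1 upstream window: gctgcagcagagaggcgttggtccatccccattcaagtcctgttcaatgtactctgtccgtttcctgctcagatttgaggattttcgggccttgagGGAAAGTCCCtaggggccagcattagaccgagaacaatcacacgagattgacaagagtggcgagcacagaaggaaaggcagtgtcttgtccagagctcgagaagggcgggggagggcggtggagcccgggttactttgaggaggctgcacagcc
Csf2 upstream window: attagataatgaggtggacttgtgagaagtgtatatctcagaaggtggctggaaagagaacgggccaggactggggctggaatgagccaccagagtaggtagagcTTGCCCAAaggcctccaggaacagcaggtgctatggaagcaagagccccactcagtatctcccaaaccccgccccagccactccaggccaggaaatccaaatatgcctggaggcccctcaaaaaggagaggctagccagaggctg
The capitals in Csf1 read GGGACTTTCC on the opposite strand, a match to the consensus of NF-kappaB, a transcription factor that LPS activates, at bases 154 to 145 before the start. Of 32851 windows of this length in the same table, 7.25% held a match to that consensus on either strand. The capitals in Csf2 match TTGCNNAA, a C/EBP motif, at bases 145 to 138 before the start, and 9.56% of windows held that motif. The other motifs searched on both strands were TGANTCA of AP-1, held by 6.75% of windows, GAGGAA of PU.1, held by 23.3%, and the TATA box TATAAA, held by 12.4%. No further match lay in either window. RefSeq lists 1 curated and 1 predicted transcript of Csf2, and the table gives the window of 1 start, the outermost of the gene model. That window may belong to the predicted transcript and may not be the promoter of the curated one, which was not searched, so nothing is read from motifs that it lacks. The matches are letters in a sequence, and binding was not measured.

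LPS raised both ligand genes and 1 receptor gene in both genotypes. In control and knockout cells Csf2 rose by 6.68 and 6.02 on the log2 scale, sizes that depend on the constant of 16 added to near-background untreated signals, Csf1 rose 10.3- and 7.18-fold and Csf3r 3.40- and 2.69-fold, while Csf1r, Csf2ra and Csf2rb did not pass the test. The Csf1 folds are those of 1 probe set, and its other 3 gave 3.2- to 7.2-fold in control and 3.1- to 5.9-fold in knockout cells. The Csf3r calls depended on the scaling and on single arrays. In control cells 3 of the 6 genes were called higher and 0 lower, where 7.09% of all genes were called higher and 8.54% lower. In knockout cells Csf1, Csf2 and Csf3r were again the 3 called higher, with 0 lower, where 7.29% and 8.51% of all genes were. The LPS arrays lay wholly above the untreated arrays for these 3 genes, as for 14.7% of all genes in control and 14.8% in knockout cells. The median difference of the 6 genes was 1.06 on the log2 scale in control cells and 0.86 in knockout cells, beside a median of -0.05 and -0.03 over all genes.

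**Figure D1:**
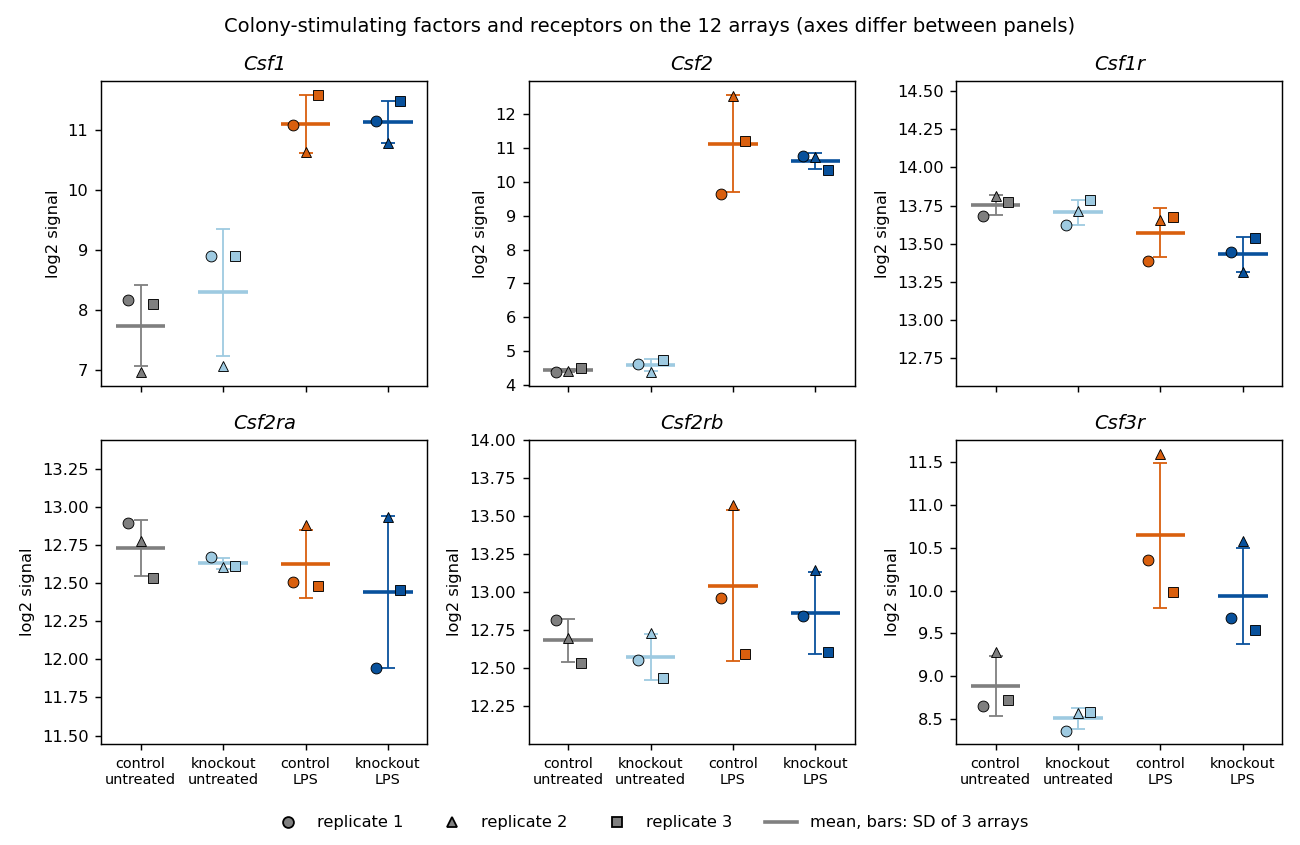
Log2 signal (y axis, with its own range in each panel) of the 6 genes in the 4 groups, with 1 symbol per array, the shape giving the replicate number, and the mean and SD of 3 arrays. Csf1, Csf2 and Csf3r sit higher on all LPS arrays than on all untreated arrays of the same genotype, while Csf2ra and Csf2rb overlap.

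Csf2 encodes GM-CSF, a growth factor of granulocytes and macrophages. Its probe set, 1427429_at, had deposited signals of 6, 4.9 and 7.4 on the untreated control arrays and of 8.7, 3.7 and 16.1 on the untreated knockout arrays. After LPS the deposited signals were 1015.4, 4735.3 and 2657 in control cells and 1113.9, 349.2 and 1173.9 in knockout cells. Every LPS array was far above every untreated array, and the dim knockout array gave the lowest LPS value. On the scaled log2 axis the untreated arrays lay between 4.39 and 4.75, the control LPS arrays at 9.65, 12.52 and 11.19 and the knockout LPS arrays at 10.76, 10.73 and 10.33. The control arrays spread more after LPS (11.12 ± 1.44, SD, n = 3) than the knockout arrays (10.60 ± 0.24), because control replicate 2 was the highest and replicate 1 the lowest of all 6. From low to high the group means were 4.44 ± 0.05 (untreated control), 4.59 ± 0.18 (untreated knockout), 10.60 ± 0.24 (knockout with LPS) and 11.12 ± 1.44 (control with LPS), and the LPS step alone exceeded the spread.

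The LPS difference of Csf2 was 6.68 (SE 0.53, limma adjusted p = 1.847e-05, 103-fold with 16 added) in control cells and 6.02 (SE 0.53, adjusted p = 4.388e-05, 64.7-fold with 16 added) in knockout cells. Untreated signals were small against the 16 added, so the size depends on that constant. With 1 added the differences were 8.37 and 7.45, and with 64 added they were 5.04 and 4.48. Without LPS-treated control replicate 1 the control difference was 7.42 (adjusted p = 2.846e-06), and without LPS-treated control replicate 2 it was 5.98 (adjusted p = 1.832e-05). Without the dim array the knockout difference was 5.96 (adjusted p = 0.0003732).

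Csf1 encodes M-CSF, the factor that was also in the culture medium. The probe set used for the gene, 1460220_a_at, read 8.16, 6.97 and 8.10 on the untreated control arrays and 8.91, 7.07 and 8.91 on the untreated knockout arrays. After LPS it read 11.09, 10.63 and 11.59 in control cells and 11.15, 10.79 and 11.49 in knockout cells. The LPS arrays were all above the untreated arrays, and replicate 2 was the lowest of each group of 3. The LPS difference was 3.36 (SE 0.50, limma adjusted p = 0.001148, 10.3-fold) in control cells and 2.84 (SE 0.50, adjusted p = 0.003207, 7.18-fold) in knockout cells. From low to high the group means were 7.75 ± 0.67 (untreated control), 8.30 ± 1.06 (untreated knockout), 11.11 ± 0.48 (control with LPS) and 11.14 ± 0.35 (knockout with LPS), where the untreated pair and the LPS pair each overlapped.

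The other 3 Csf1 probe sets also had LPS arrays above untreated arrays in both genotypes. Fitted with all 34945 probe sets, of which 6.24% were called higher in control cells and 6.13% in knockout cells, 1425154_a_at rose by 1.67 and 1.64 and 1448914_a_at by 2.86 and 2.57 in control and knockout cells. The fourth, 1425155_x_at, rose by 2.59 in control cells and differed by 1.76 in knockout cells, where its adjusted p was 0.05138. The suffix x marks probes that can match other transcripts. The fold of 1 probe set is therefore not the fold of the gene.

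In untreated cells the array with the lowest Csf1 also had the lowest markers of connective tissue cells, which are a known source of M-CSF. The summed signal of 13 stromal markers, collagens among them, was 4946, 825 and 11032 on untreated control replicates 1 to 3 and 8758, 1644 and 13637 on untreated knockout replicates. Replicate 2 was the lowest in both groups, as for Csf1. After LPS the stromal sums were 5986, 5351 and 6521 in control cells and 10168, 4649 and 14535 in knockout cells, which overlap the untreated values. By same-numbered pairs the stromal sum was higher with LPS in 5 of 6 and lower in control replicate 3. Of the 13 markers, 1 rose with LPS, Pdgfrb, beside 7.09% of all genes in control and 7.29% in knockout cells. At most 1 marker was below a signal of 16 on any array. Without untreated knockout replicate 2 the knockout difference of Csf1 was 2.23 (adjusted p = 0.006979), and when replicate 2 of all groups was left out in a fit blocked by replicate the differences were 3.21 (adjusted p = 0.001479) and 2.41 (adjusted p = 0.003621). The part of stromal cells in the Csf1 level was not tested.

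**Figure D2:**
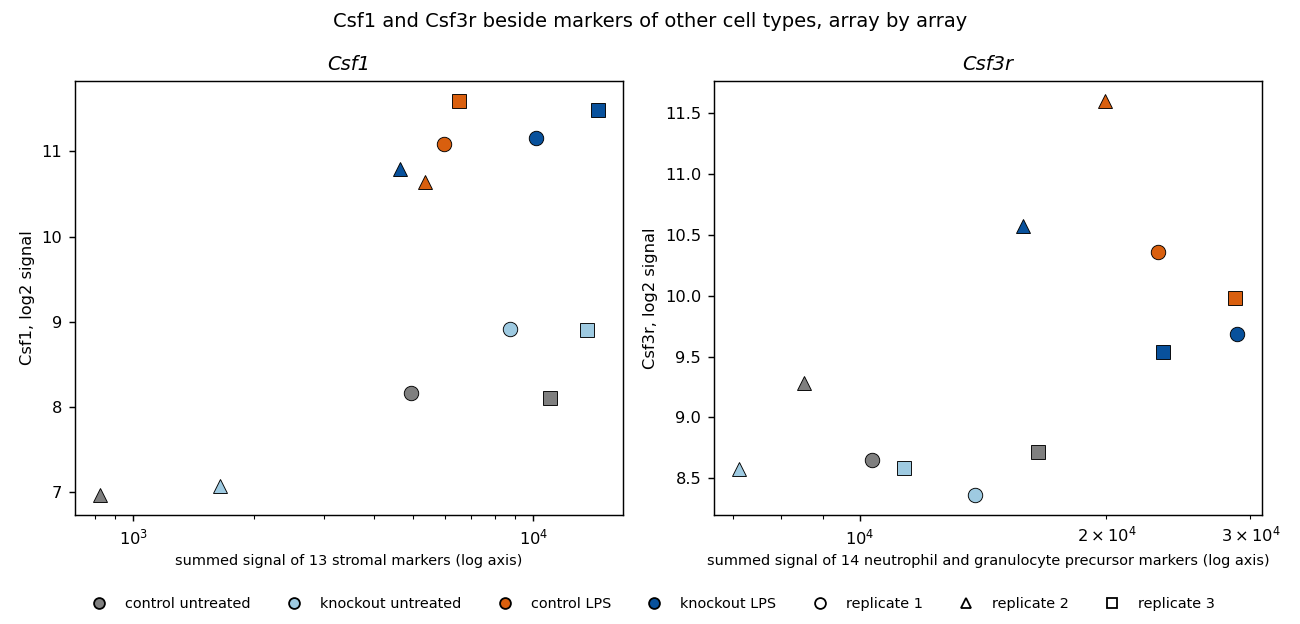
Log2 signal of Csf1 (left) and Csf3r (right) on the y axes against the summed signal of 13 stromal and of 14 neutrophil and granulocyte precursor markers (x axes, log scale), 1 symbol per array, coloured by group and shaped by replicate number. Untreated replicates 2 (grey and light blue triangles) have the lowest stromal sums and the lowest Csf1, and after LPS replicate 2 has the lowest neutrophil sum and the highest Csf3r of its genotype.

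Csf3r encodes the receptor of G-CSF. Its probe set, 1418806_at, read 8.65, 9.29 and 8.72 on the untreated control arrays and 8.36, 8.57 and 8.58 on the untreated knockout arrays. With LPS it read 10.36, 11.60 and 9.98 in control cells and 9.69, 10.58 and 9.54 in knockout cells. The LPS arrays lay above the untreated arrays in both genotypes, and replicate 2 was the highest of 3 after LPS. The difference was 1.77 (SE 0.40, limma adjusted p = 0.01205, 3.40-fold) in control cells and 1.43 (SE 0.40, adjusted p = 0.03364, 2.69-fold) in knockout cells. From low to high the group means were 8.51 ± 0.12 (untreated knockout), 8.88 ± 0.35 (untreated control), 9.93 ± 0.56 (knockout with LPS) and 10.65 ± 0.85 (control with LPS), and neighbours within a stimulus were not separated by a test.

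The Csf3r call depended on the scaling and on single arrays. Before scaling, the deposited signals of the knockout arrays were 399.2, 344.6 and 514 untreated and 475.1, 313.6 and 641.6 with LPS, which overlap, and with no scaling the knockout difference was 0.14 (adjusted p = 0.8726) and the control difference 1.41 (adjusted p = 0.1007). The median of all genes with no scaling was -0.73 in knockout and -0.25 in control cells. Centring arrays on their medians left 0.85 in knockout cells (adjusted p = 0.1351). Without the dim array the knockout difference was 1.11 (adjusted p = 0.121). It also missed the threshold without untreated knockout replicate 1 (1.36, adjusted p = 0.1085), replicate 2 (1.46, adjusted p = 0.0757) or replicate 3 (1.47, adjusted p = 0.07738) and without LPS-treated knockout replicate 1 (1.55, adjusted p = 0.05175). In control cells it missed the threshold without untreated control replicate 1 (1.65, adjusted p = 0.0501).

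The summed signal of 14 neutrophil and granulocyte precursor markers was 7107 to 16497 on the 6 untreated arrays and 15797 to 28893 on the 6 LPS arrays, and higher with LPS in each of the 6 same-numbered pairs. The sum includes Lcn2. Of the 14 genes, 12 were not called and 2 rose with LPS in both genotypes, Lcn2 by 3.95 and 3.88 and Camp by 1.47 and 1.67. Both encode antimicrobial proteins of neutrophil granules, and Lcn2 is also made by stimulated macrophages. Of all genes, 7.09% were called higher in control and 7.29% in knockout cells. The median difference of the 14 genes was 0.71 in control and 0.78 in knockout cells, beside -0.05 and -0.03 over all genes. The granule genes Mpo and Elane had differences of 0.86 and 0.10 in control cells and did not pass. After LPS the array with the highest Csf3r in each genotype, replicate 2, had the lowest neutrophil sum, 19905 in control and 15797 in knockout cells. The part of granulocytic cells in the Csf3r difference was not tested.

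Csf1r, the M-CSF receptor gene, did not pass the test. The untreated arrays of 1419873_s_at, the probe set used, read 13.68, 13.81 and 13.77 in control and 13.62, 13.72 and 13.78 in knockout cells, and the LPS arrays 13.38, 13.66 and 13.68 and 13.44, 13.31 and 13.54. The group means were 13.75 ± 0.07 and 13.71 ± 0.08 in untreated control and knockout cells and 13.57 ± 0.16 and 13.43 ± 0.11 after LPS (SD, n = 3), and the neighbours in that order lay within their spread. The LPS arrays were all below the untreated arrays in each genotype, which held for 19.4% and 19.5% of all genes. The differences were -0.18 (95% confidence interval -0.55 to 0.18, limma adjusted p = 0.5296) and -0.28 (-0.64 to 0.09, adjusted p = 0.3168). Of the other probe sets, 1423593_a_at was also lower on all LPS arrays, by -0.42 (adjusted p = 0.1596) and -0.31 (adjusted p = 0.3138), and 1419872_at overlapped, with -0.14 and -0.03. Centring the arrays on their medians turned the sign on the probe set used, to 0.16 and 0.03, so no direction is given for Csf1r.

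Csf2ra and Csf2rb, the chains of the GM-CSF receptor, did not pass the test, while the gene of their ligand rose by the largest step of the 6. Csf2ra on 1420703_at read 12.89, 12.77 and 12.53 in untreated control cells, 12.67, 12.61 and 12.61 in untreated knockout cells, 12.51, 12.88 and 12.48 in control cells with LPS and 11.94, 12.94 and 12.45 in knockout cells with LPS. The means were 12.73 ± 0.18 and 12.63 ± 0.04 in untreated control and knockout cells and 12.62 ± 0.22 and 12.44 ± 0.50 with LPS, all groups overlapped, and the widest spread was that of the knockout with LPS. The differences were -0.11 (95% confidence interval -0.65 to 0.43, adjusted p = 0.8275) and -0.19 (-0.73 to 0.36, adjusted p = 0.6829). The second Csf2ra probe set, 1420704_at, had differences of 0.50 (adjusted p = 0.2913) and 0.60 (adjusted p = 0.1931), so the probe sets differ in sign and neither was called.

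Csf2rb on 1455660_at read 12.82, 12.70 and 12.54 in untreated control cells, 12.56, 12.73 and 12.44 in untreated knockout cells, 12.96, 13.57 and 12.60 in control cells with LPS and 12.85, 13.14 and 12.61 in knockout cells with LPS. The means were 12.68 ± 0.14 and 12.58 ± 0.15 in untreated control and knockout cells and 13.04 ± 0.49 and 12.87 ± 0.27 with LPS. The groups overlapped, and LPS-treated replicate 2 was the highest in both genotypes. The differences were 0.36 (95% confidence interval -0.20 to 0.92, adjusted p = 0.4013) and 0.29 (-0.27 to 0.85, adjusted p = 0.5131), and on 1421326_at they were 0.41 (adjusted p = 0.4421) and 0.72 (adjusted p = 0.1509). Csf2rb2, the mouse paralog that pairs with the interleukin-3 receptor and is the neighbour of Csf2rb on the chromosome, had 0.20 (adjusted p = 0.754) and 0.24 (adjusted p = 0.714). A probe set annotated to both paralogs cannot be given to one of them and is described in the closing section.

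**Figure D3:**
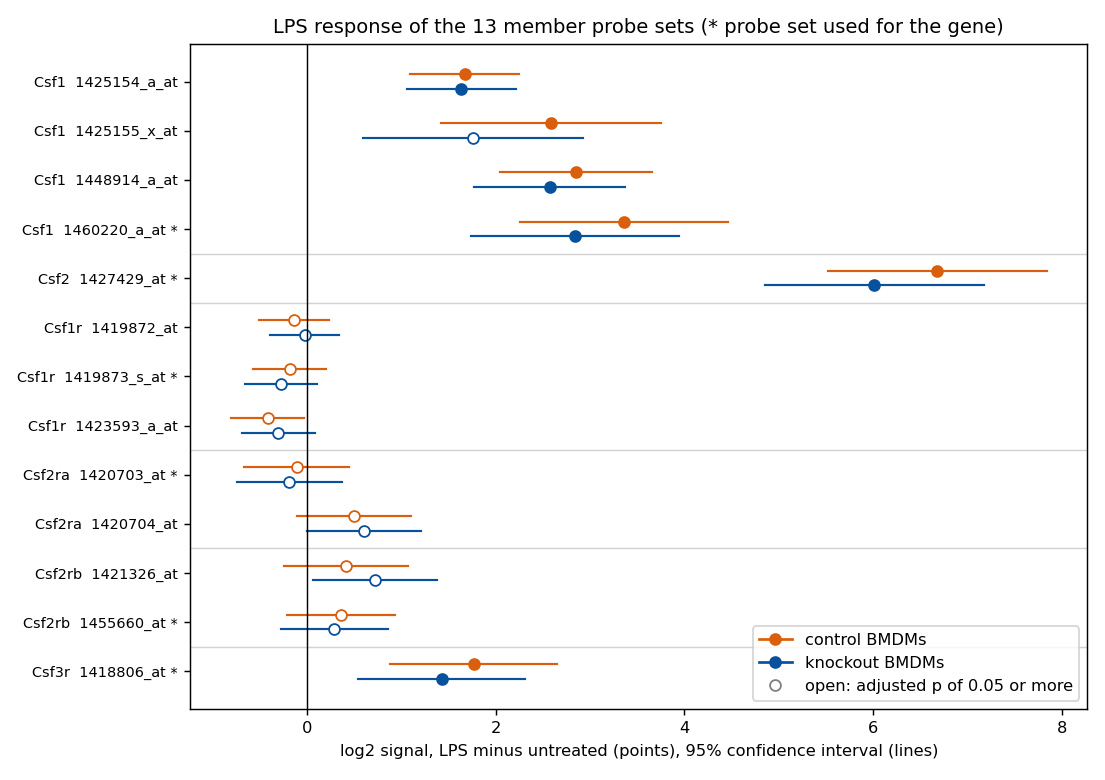
LPS minus untreated log2 signal (x axis) with its 95% confidence interval for the 13 probe sets of the 6 genes, in control (orange) and knockout (blue) BMDMs, from the fit over all probe sets. Filled points passed an adjusted p of 0.05. For Csf1 these are all 4 probe sets in control cells and all except 1425155_x_at in knockout cells. The Csf2 and Csf3r probe sets passed in both genotypes, while no probe set of Csf1r, Csf2ra or Csf2rb did.

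Among 10 relatives of these genes that were measured, Csf3, the gene of G-CSF, was the one that rose, and Kitl the one that fell. The shares of all genes called higher and lower were 7.09% and 8.54% in control cells and 7.29% and 8.51% in knockout cells. Csf3 averaged 5.24 and 5.45 in untreated control and knockout cells and 9.77 and 9.30 with LPS, a difference of 4.52 (SE 0.78, limma adjusted p = 0.002731) and 3.85 (adjusted p = 0.00712). Its deposited signals with LPS were 452.3, 3208.6 and 384.1 in control cells, and without replicate 2, the highest, the control difference was 3.39 (adjusted p = 0.001291). Kitl, the gene of stem cell factor, fell by 1.31 (adjusted p = 0.04206) and by 1.54 (adjusted p = 0.0203). Il34, the gene of the other ligand of the M-CSF receptor, had small differences of 0.31 (adjusted p = 0.554) and 0.20 (adjusted p = 0.716).

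The list of GM-CSF and G-CSF receptor signalling holds 17 genes of the Janus kinase and STAT route, its inhibitors and downstream genes among them. Of these 17, 9 rose and 1 fell in control cells and 8 rose and 1 fell in knockout cells. Their median difference was 0.93 and 0.98. Of all genes 7.09% rose and 8.54% fell in control cells and 7.29% and 8.51% in knockout cells, with a median of -0.05 and -0.03. The 3 with the smallest p were Pim1, a survival kinase (4.59, SE 0.18, adjusted p = 2.219e-07), Cish, a feedback inhibitor (4.32, SE 0.26, adjusted p = 2.871e-06), and Stat5a, the transcription factor that GM-CSF activates (2.92, SE 0.25, adjusted p = 3.464e-05). In knockout cells these were 4.27, 3.69 and 2.57, each past the threshold. The gene that fell was Pparg, a nuclear receptor that GM-CSF induces in alveolar macrophages. Other cytokines that LPS induces use the same kinases and STAT proteins, and their part was not tested.

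Of 18 measured genes downstream of the M-CSF receptor, 2 rose and 5 fell in control cells and 1 rose and 5 fell in knockout cells, where 7.09% and 8.54% of all genes rose and fell in control cells and 7.29% and 8.51% in knockout cells. In control cells 3 fell without untreated replicate 1 or 3 or LPS-treated replicate 2 of the control, and 1 rose without untreated control replicate 1. Inpp5d, the lipid phosphatase SHIP1, fell by 3.22 (SE 0.30, adjusted p = 4.68e-05), and Dok2, an adaptor that restrains signalling, fell by 2.60 (SE 0.38, adjusted p = 0.000915). Src, a tyrosine kinase, rose by 3.55 (SE 0.39, adjusted p = 0.0001714). In knockout cells the differences were -2.77, -2.61 and 4.01, each past the threshold. Of 5 genes of receptor shedding, Rhbdf2, which brings the protease ADAM17 to the cell surface, rose by 2.24 (SE 0.35, adjusted p = 0.001431) in control cells and by 2.15 (adjusted p = 0.002007) in knockout cells, and Adam17 itself had 0.45 and 0.47 and did not pass.

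Regulators of these genes moved in both directions. Of 12 measured transcription factors known to act on Csf1r or the GM-CSF receptor genes, 2 rose and 3 fell in control cells, and 3 rose and 3 fell in knockout cells. Of all genes, 7.09% were called higher and 8.54% lower in control cells and 7.29% and 8.51% in knockout cells. Leaving out 1 array moved the count that rose in control cells to 1 (without untreated replicate 1 or LPS-treated replicate 2 of the control) and the count that fell to 5 (without untreated control replicate 2). In knockout cells the count that rose was 1 to 2 whichever array was left out, and it was 1 without untreated control replicate 3, LPS-treated control replicate 1, any untreated knockout array or LPS-treated knockout replicate 2 or 3. The 3 that fell were Fos (-2.83, SE 0.42, adjusted p = 0.001034), Cebpa (-2.24, SE 0.29, adjusted p = 0.0004129) and Jun (-1.83, SE 0.32, adjusted p = 0.00304). Of 11 genes whose proteins act on the stability of unstable messages such as that of Csf2, 3 rose and 2 fell in both genotypes, beside the same shares of all genes. The count that fell was 1 in control cells without untreated or LPS-treated control replicate 1 or 3, and 1 in knockout cells without untreated knockout replicate 1 or 3 or LPS-treated knockout replicate 2 or 3. Those that rose were the RNase gene Zc3h12a (3.86, SE 0.37, adjusted p = 6.549e-05), Zfp36, which encodes tristetraprolin (1.65, SE 0.19, adjusted p = 0.0002066), and Rc3h1, which encodes Roquin-1 (1.32, SE 0.18, adjusted p = 0.0006066). Each of these 3 encodes a protein that shortens the life of messages, and message stability was not measured.

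**Figure D4:**
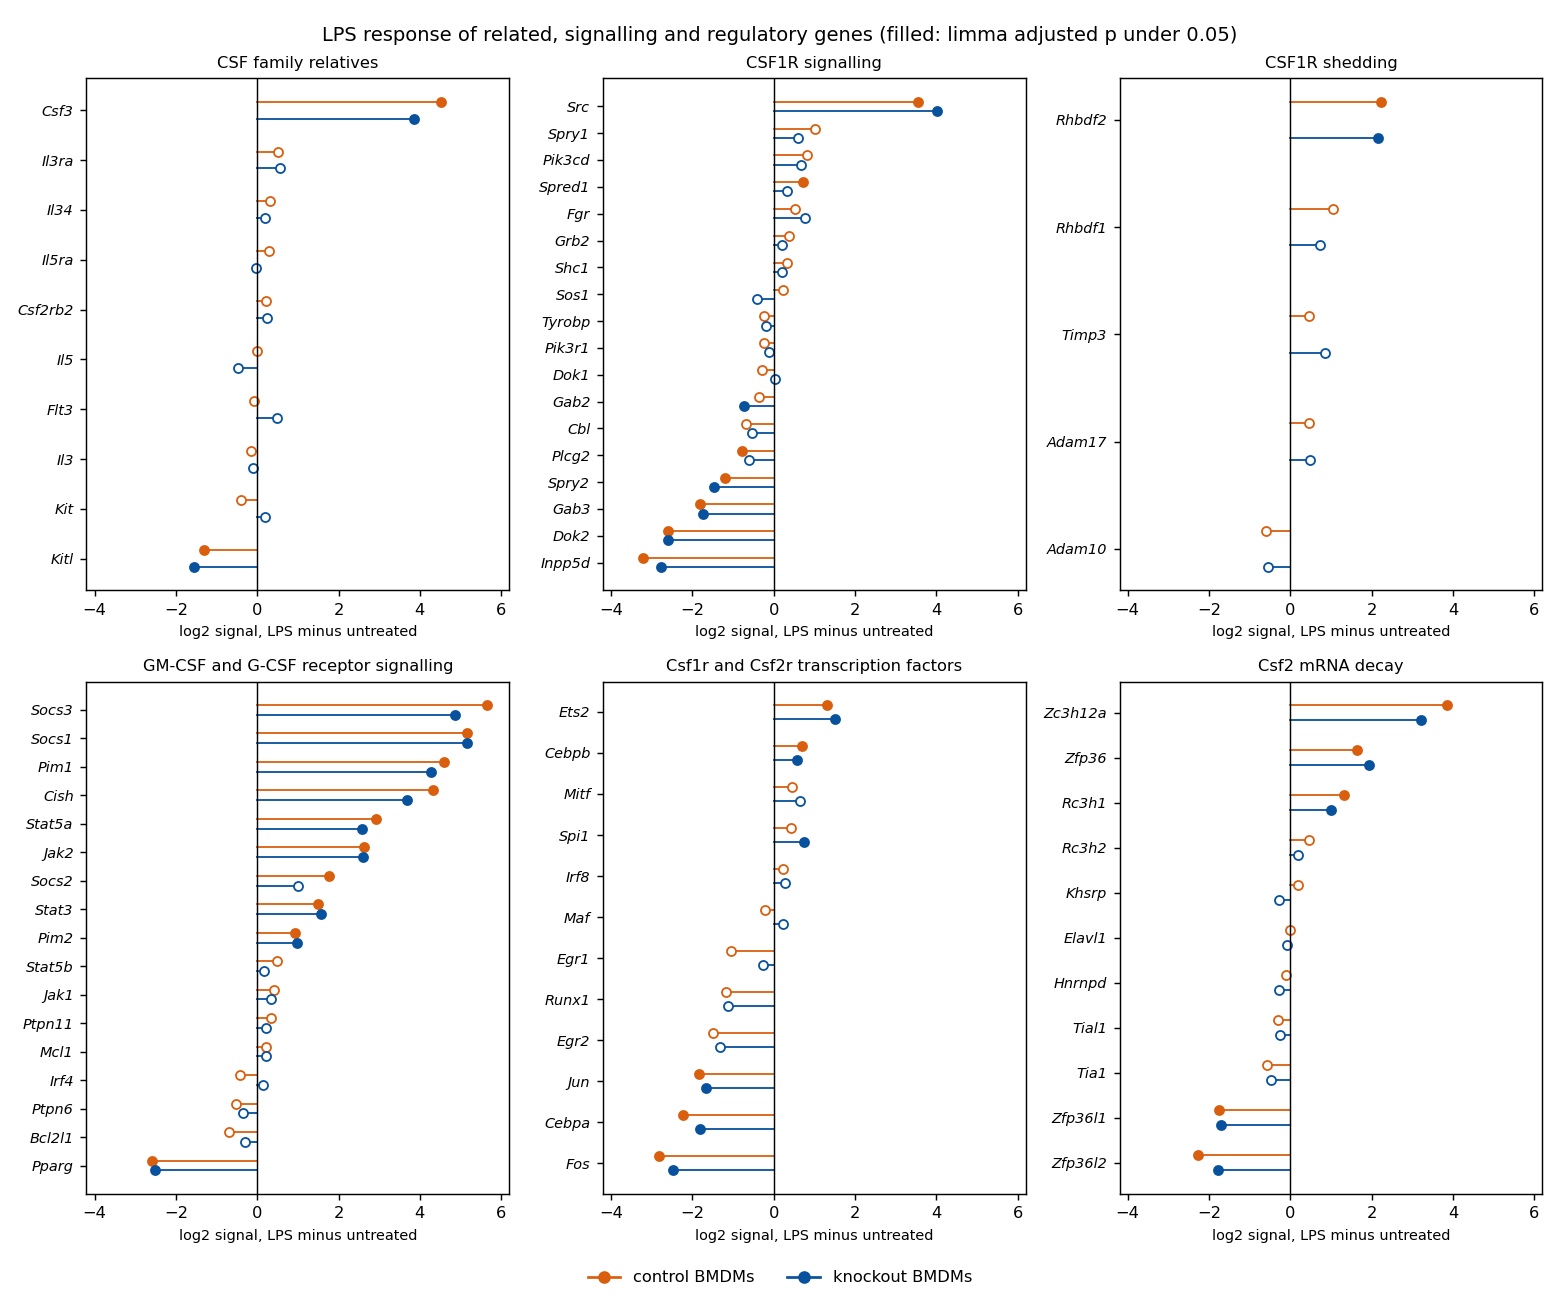
LPS minus untreated log2 signal (x axes) of the measured genes in 6 lists, in control (orange) and knockout (blue) BMDMs, with filled points where the limma adjusted p was under 0.05. Csf3 stands apart among the relatives, Pim1, Cish and Stat5a are among 9 genes that rose in control cells in the list of GM-CSF and G-CSF receptor signalling, and Inpp5d and Dok2 lie lowest in the list of CSF1R signalling.

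Between genotypes none of the 6 genes was called, in untreated cells, with LPS or in the mean of both. Limma at an adjusted p of 0.05 called 0% of all 18193 genes in untreated cells, 0.011% with LPS and 0.022% in the mean of both. At an unadjusted p under 0.05 the counts were 435, 1051 and 887 genes, and 0 of the 6 were among them. Blocked by replicate, the counts were 800, 1642 and 1609 genes, and Csf3r was among them with LPS (unadjusted p = 0.02605, adjusted p = 0.4944) and in the mean. No gene passed the test for a different LPS response in the genotypes, and 555 genes were under an unadjusted 0.05, with 0 of the 6 among them.

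The ligands were not called between genotypes. Csf1 was 0.55 higher in untreated knockout cells (95% confidence interval -0.55 to 1.65, adjusted p = 0.9999) and 0.04 higher with LPS (-1.07 to 1.14, adjusted p = 0.9973). The 3 untreated pairs of the same number were all higher in the knockout, by 0.75, 0.10 and 0.80. Replicate 2 was the lowest array of both untreated groups, so leaving it out of a single group moved the difference. It was 1.16 without untreated knockout replicate 2 and 0.16 without untreated control replicate 2. The pairs of replicates 1 and 3, at 0.75 and 0.80, do not include replicate 2. One of the other Csf1 probe sets, 1425155_x_at, was 1.26 higher in untreated knockout cells at an unadjusted p of 0.03677 and an adjusted p of 1. The summed stromal signal was also higher on each untreated knockout array than on the control array of the same number. Its markers include Col1a1, Sparc and Bgn, which the paper reports from these arrays as higher in knockout macrophages. The part of stromal cells was not tested. Csf2 differed by 0.15 untreated (-1.01 to 1.31) and by -0.52 with LPS (-1.68 to 0.64, adjusted p = 0.9559). The 3 same-numbered pairs with LPS gave 1.10, -1.80 and -0.86, so they did not share a direction.

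Csf3r was lower in the knockout in 6 of 6 same-numbered pairs. Untreated, the pairs differed by -0.28, -0.71 and -0.13, and all knockout arrays lay below all control arrays, as for 3.17% of all genes. With LPS they differed by -0.68, -1.03 and -0.44, and the groups overlapped. The mean differences were -0.38 (95% confidence interval -1.26 to 0.51, adjusted p = 0.9999) and -0.72 (-1.60 to 0.17, adjusted p = 0.9109). Over both stimuli the difference was -0.55 (-1.17 to 0.08, unadjusted p = 0.08086, adjusted p = 0.9632), and a limma fit blocked by replicate gave an unadjusted p of 0.01847 and an adjusted p of 0.4666. All 6 pairs were lower for 2.37% of all genes. Neither adjusted p reached the threshold. Without LPS-treated control replicate 2 the difference with LPS was -0.24. That fit keeps knockout replicate 2, which was also the highest of its group. The pairs of replicates 1 and 3 with LPS gave -0.68 and -0.44.

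The receptor genes Csf1r, Csf2ra and Csf2rb had genotype differences of -0.05, -0.10 and -0.11 in untreated cells. With LPS these were -0.14, -0.18 and -0.18. The 95% confidence intervals with LPS were -0.50 to 0.22, -0.72 to 0.36 and -0.73 to 0.38, and they hold for quantile-scaled arrays alone. With no scaling, where the dim array stays dim, the differences with LPS were -0.64, -0.98 and -0.84, none of them called. For these 3 genes the order of the 4 group means is therefore not resolved. The test for a different LPS response gave -0.52 for Csf1, -0.67 for Csf2 and -0.34 for Csf3r, each with an adjusted p of 1. None of the 151 listed genes of signalling, regulation and cell types that were measured was called between genotypes. A missing call does not show that levels were equal. The 13 stromal markers had a median difference of 0.62 in untreated cells (-0.47 to 1.25), beside 0.04 over all genes. With LPS their median was 1.05 (-0.67 to 1.63), again beside 0.04. The paper reports extracellular matrix genes, collagens among them, as higher in knockout cells, and its genes include Col1a1, Sparc and Bgn of this list. It chose genes by a different test and threshold and checked them by qPCR.

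**Figure D5:**
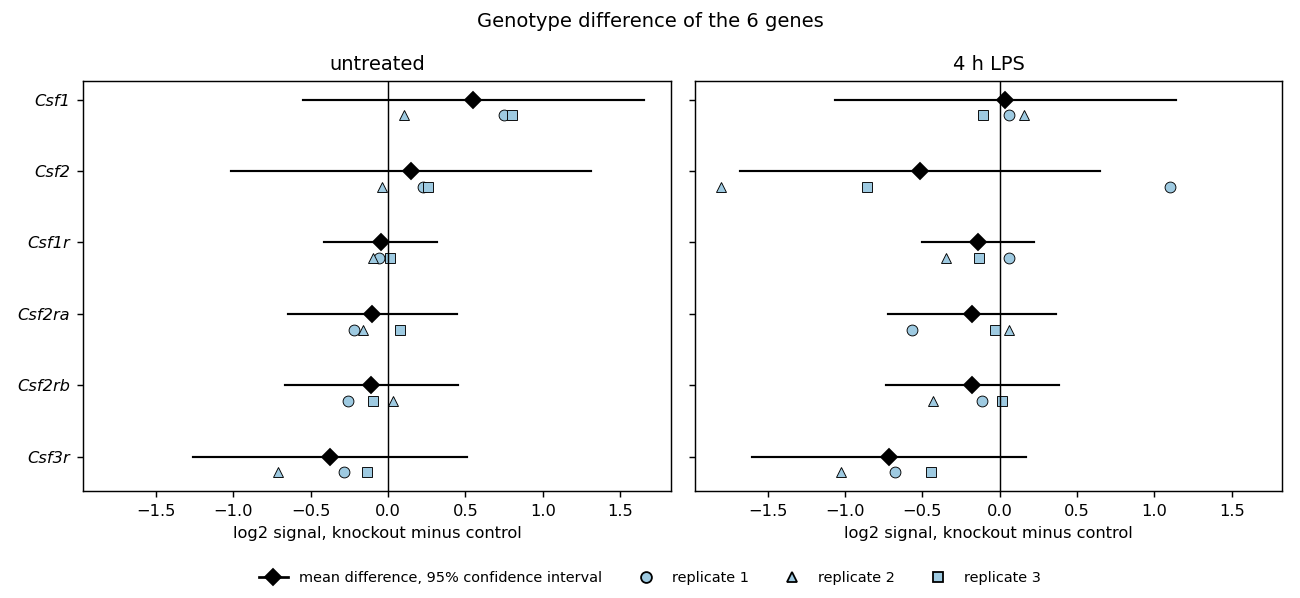
Knockout minus control log2 signal (x axis) of the 6 genes in untreated BMDMs (left) and after 4 h of LPS (right), with the mean difference and its 95% confidence interval in black and the 3 same-numbered pairs in blue. Every interval includes 0, the 3 Csf2 pairs with LPS spread from -1.80 to 1.10, and the Csf3r pairs lie below 0 in both panels.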

How the data were processed

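Total RNA of 12 cultures, 3 in each of 4 groups, was hybridised by the authors to an Affymetrix mouse expression array. The authors deposited 1 linear signal intensity per probe set, normalized in Expression Console. How probe values were summarized is not stated in the labels or methods read here, and the deposited arrays still differed in mean, so the arrays were quantile-scaled again. Of 45101 probe sets, 64 controls were dropped, 34945 had 1 gene symbol, 932 had several and 9160 had none. Scaled signals were increased by 16 and log2-transformed, and the probe set with the highest mean stood for each of 18193 genes. Group differences were fitted with limma 3.58.1 in R 4.3.3 (1 mean per group, 8 residual degrees of freedom, two-sided moderated test, Benjamini-Hochberg adjustment over all genes), and figures were drawn with matplotlib 3.10.9. The number of arrays limits the precision, and with 3 against 3 an exact permutation test cannot go below 0.1.

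Same-numbered cultures deviated together: over 12 same-number pairs the correlation of deviations from the group means was 0.13 to 0.44, against at most 0.07 for pairs of different numbers, so the numbers were taken to pair the samples. The pairing comes from the data, not from the labels. The main tests have no term for it, and the fit blocked by replicate is given as an alternative. With the block the SE of the LPS differences of Csf1 was 0.28 instead of 0.50.

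The genes, the gene lists and the tests were chosen with earlier results of these data known. Named were all 6 genes with every probe set, up to 3 genes per list with the smallest p among those called for LPS in control cells, Csf3, Il34 and Csf2rb2 and, for each of the 6, the 3 genes most correlated with it. Pparg, Mpo, Elane, Adam17, Adgre1, Cd68, Lyz2 and Kdr were named after their values were seen. Col1a1, Sparc and Bgn were named because the paper names them. Of 162 listed genes, 151 were measured. Alternatives were the replicate block, median centring, no scaling, 1 or 64 added, averaging a gene's probe sets, keeping the 11627 genes whose mean log2 signal reached 6, the compared arrays alone, limma with trend and robust settings, the methods' t-test and leaving out each array. The limma fit without a block and the t-test were tested on simulated data, and the other steps were not.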

Additional observations from a re-analysis of the deposited data

Results flagged for a closer look

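One probe set, 1450200_s_at, is annotated to both Csf2rb2 and Csf2rb, the neighbouring genes of beta chains, and so entered no gene comparison. Its LPS minus untreated log2 signal was 0.9383 in control and 1.4035 in knockout BMDMs (limma over all probe sets, adjusted p = 0.365 and 0.152), so neither passed the test. It is given because after scaling all 3 LPS arrays lay above all 3 untreated arrays in both genotypes. That held for 14.7% of all genes in control and 14.8% in knockout cells. Before scaling the arrays overlapped. The lowest deposited LPS signals were 816.7 in control and 508.5 in knockout cells, and the highest untreated signals were 1023.7 and 721. The scaled signals were 656.5, 798.1 and 595.1 against 1026.7, 2736.8 and 804.2 in control cells and 477.8, 788.9 and 441 against 857.7, 3880.1 and 972 in knockout cells. Replicate 2 was the highest in all 4 groups, and in knockout cells it is the dim array.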

How the results depend on the processing

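The LPS calls of Csf2 kept their direction and their side of the threshold under all alternatives run, and those of Csf1 in control cells did too. The Csf1 call in knockout cells was lost with no scaling (1.68, adjusted p = 0.110) and by the methods' t-test after adjustment (0.0910), and the calls of Csf3r were lost as given in the report and by that t-test (adjusted p = 0.154 and 0.0941). The control call of Csf3 was lost by that t-test (adjusted p = 0.122). At the methods' threshold of 0.01 without adjustment, the t-test called Csf1 and Csf2 in control cells and Csf2 in knockout cells. Of the 6 genes, 1 instead of 3 was called higher in knockout cells with no scaling, and 1 by the adjusted t-test. No scaling moved the median of all genes to -0.25 in control and -0.73 in knockout cells, to -0.60 between genotypes with LPS, to -0.33 in the mean of both stimuli and to -0.59 in the interaction, and median centring moved the interaction to -0.18. The share of calls that were higher in knockout cells was 46.1%, with median centring 33.0% and with no scaling 7.88%. The cause was not tested.

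Counts of genes called, out of 2844 (LPS, control), 2874 (LPS, knockout), 0 (genotype, untreated), 2 (genotype, LPS), 4 (genotype, mean) and 0 (interaction), moved as follows. With no scaling 893 genes were called in control cells and 1 in the genotype mean, and the t-test called 824 in control cells, 1376 in knockout cells and 0 between genotypes with LPS. Between genotypes with LPS, 1 gene was called with median centring, 4 with 64 added, 1 with the mean of probe sets, and 0 with the filter on a mean log2 signal of 6, with only the arrays compared and without replicate 2 of all groups with the block. In the genotype mean, 1 was called with median centring, 2 with the filter and 0 without replicate 2 of all groups with the block. In untreated cells 4 were called with 64 added, 3 with the mean of probe sets, 3 with the filter and 4 with trend and robust settings, and the interaction had 3 with 1 added.

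Leaving out 1 array at a time gave 1912 to 3114 genes in control cells, 1704 (without untreated knockout replicate 1) to 3075 in knockout cells, 0 to 1 for the genotype untreated, 2 to 5 with LPS (5 without the dim array), 3 to 4 in the mean and 0 to 1 in the interaction, and 2 to 3 of the 6 genes in each genotype. With the replicate number as a block, taking the pairing of the arrays as real, the counts were 4108 and 4086 with LPS and 0, 2, 6 and 0 between genotypes and in the interaction. The block changed no call of the 6 genes (Csf3r between genotypes with LPS, adjusted p = 0.494).

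Differences that were not called changed sign. Median centring gave LPS differences of 0.16 (Csf1r) and 0.26 (Csf2ra) in control cells and 0.0277 (Csf1r) in knockout cells, and -0.42 for Csf1 between genotypes with LPS. No scaling gave -0.26 for Csf2rb with LPS in knockout cells and -0.94 and -0.25 for Csf1 between genotypes with LPS and in the mean. The mean of probe sets gave 0.20 and 0.21 for Csf2ra with LPS, 0.0119 for Csf1r between genotypes with LPS, and 0.0424 (Csf1r), 0.013 (Csf2ra) and 0.12 (Csf2rb) in the interaction. Without replicate 2 of all groups and with the block, the genotype differences with LPS were -0.0233 (Csf1), 0.12 (Csf2) and 0.33 (Csf3), those in the mean 0.18 (Csf2) and 0.48 (Csf3), and the interaction of Csf2rb 0.13. Leaving out 1 array at a time gave -0.0399 to 0.60 for Csf3 between genotypes untreated. With LPS it gave -0.20 to 0.28 (Csf1), -1.25 to 0.18 (Csf2), -0.43 to 0.0719 (Csf2ra), -0.40 to 0.0882 (Csf2rb) and -1.05 to 0.67 (Csf3). In the mean it gave -0.55 to 0.17 (Csf2) and -0.42 to 0.44 (Csf3), and for the LPS difference of Csf2ra in knockout cells -0.43 to 0.0643. In the interaction it gave -1.40 to 0.0346 (Csf2), -0.32 to 0.17 (Csf2ra), -0.29 to 0.20 (Csf2rb), -0.67 to 0.14 (Csf3r) and -1.26 to 0.46 (Csf3). Signal over background limits Csf2 and Csf3 in untreated cells, whose size depends on the constant added.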

Other observations

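Among markers of other cells that were measured, a few genes rose with LPS. The shares of all genes called higher were 7.09% in control and 7.29% in knockout cells. Hdc, the enzyme that makes histamine, rose by 5.99 (limma adjusted p = 2.871e-06) in control and by 6.40 (adjusted p = 1.817e-06) in knockout BMDMs, and was the only one of 9 mast cell and basophil markers that was called. Ccr7, the receptor that guides dendritic cells to lymph nodes, rose by 2.43 (adjusted p = 0.001714) and 2.93 (adjusted p = 0.0006157). Zbtb46, a dendritic cell transcription factor, rose by 1.35 in control cells (adjusted p = 0.04764) and had 0.54 in knockout cells (adjusted p = 0.447), and the difference between genotypes in that response was not called for any gene. Of 6 endothelial markers, 1 was called, Kdr, in knockout cells alone (1.64, adjusted p = 0.0168, against 1.17 and 0.0712 in control cells).

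The genes whose log2 signal followed each member most closely over the 12 arrays, among 11626 genes, are given as a description, since the arrays share 2 stimuli and 3 replicate numbers. For Csf2 they were Nxpe3 (Pearson r = 0.994), Wfdc18 (0.991) and Il23a (0.991), and for Csf1 they were Fscn1 (0.982), Rras2 (0.981) and Ptch1 (0.976). For Csf3r they were Chic2 (0.979), Elavl4 (0.976) and Susd6 (0.976). The receptor genes that did not pass the LPS test had lower values: Csf1r with Gabpb2 (0.918), Kcnj10 (0.918) and Rita1 (0.907), Csf2ra with 2610005L07Rik (0.915), 6820431F20Rik (0.911) and Clip2 (0.898), and Csf2rb with Ing3 (0.928), Mapk8ip3 (0.925) and Scamp1 (0.921).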
